A study of Saccharomyces cerevisiae with 24 samples.

Results

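The genes described here encode 5 histone chaperones and many, but not all, subunits of the chromatin remodelers of budding yeast (Saccharomyces cerevisiae). The rule that picks them is a list of names and uses no measured value, although it was drawn up with earlier results of these data known: 8 genes of SWI/SNF, 3 whose products are shared by SWI/SNF and RSC, 11 of RSC, 6 of the ISWI remodelers, the 4 single ATPases CHD1, INO80, SWR1 and FUN30, and the chaperone genes SPT16, POB3, SPT6, ASF1 and HIR1. All 37 were among the 6575 open reading frames (ORFs) of the expression table, and all 37 passed a minimum mean of 1 TPM over the columns, as did 5965 ORFs in all. In the tables of promoter occupancy and gene body entropy, 35 of the 37 were among the 4427 ORFs. RTT102 and HIR1 were not analysed there.

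Remodelers are ATP-driven machines that slide, evict or exchange nucleosomes. SWI/SNF and the essential RSC complex open promoters, the ISWI and CHD1 enzymes space nucleosomes over genes, INO80 and SWR1 act on the nucleosomes that flank transcription start sites, and SWR1 deposits the variant histone H2A.Z. Histone chaperones carry histones without using ATP: FACT, made of SPT16 and POB3, and SPT6 keep nucleosomes intact behind RNA polymerase, ASF1 hands over histones H3 and H4, and the HIR complex, which holds HIR1, represses histone genes and assembles nucleosomes outside replication. In yeast, many stress-induced promoters lose nucleosomes when they are switched on, and SWI/SNF is known for its part in that opening.

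The cells were of the laboratory strain W303, mating type a, and all groups carried the marker alleles ade2-1, can1-100, trp1-1 and ura3-1, the his3 alleles 11 and 15 and the leu2 alleles 3 and 112. Cultures in rich medium were sampled at 0 min, before any cadmium (0 mM), and at 7.5, 15, 30, 60 and 120 min in 1 mM cadmium chloride, a toxic metal salt. RNA was sequenced, and chromatin was digested with micrococcal nuclease (MNase), which cuts DNA that proteins leave bare. The labels list 24 samples, 2 per assay and time point, whereas each deposited table has 1 column per time point, and whether a column is 1 library or both combined is not given in the sources used here. Every value below is therefore what the authors give for that time point, with no spread between replicates and no test, every change is measured from the same 0 min column, and no untreated culture was followed in parallel, so cadmium and time in culture cannot be told apart.

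Expression is in TPM, a gene's share of all transcripts corrected for gene length, so that levels can be compared between genes within a column. The reads implied by the TPM values summed to between 31543389 and 33946109 per column, and each of the 37 genes had between 644 and 18897 of them. An expression change is the difference of log2(TPM + 1) from 0 min. The added 1 understates changes slightly at the levels of the 37 genes and more for ORFs near 1 TPM. A gene was counted as changed at a difference of at least 1 in either direction. The counting error of such a difference was between 0.01 and 0.07 for these genes. It covers the sampling of reads and neither library nor biological variation. Since TPM columns sum to a fixed total, a change is one of share: taken over the 5965 ORFs, the middle change moved from -0.10 in the first treated column to 0.11, 0.35, 0.44 and 0.34 in the next 4. Where values of several time points follow each other below, those after cadmium are given in the order 7.5, 15, 30, 60 and 120 min. In a bulk culture, less of a transcript per cell and fewer cells that hold it cannot be told apart.

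Most of the 37 remodeler and chaperone transcripts kept within a factor of 2 of their starting level while the rest of the transcriptome moved. None of the 37 passed the threshold at 7.5 min, when 5.05% of all ORFs did. FUN30 alone passed it in the columns for 15, 30 and 60 min, where the shares of all ORFs were 30.8%, 46.5% and 53.3%. At 120 min FUN30, ARP9 and RSC2 passed it, against 54.0% of all ORFs. All these calls were falls, which alone made up 12.6%, 16.7%, 18.5% and 20.2% of all ORFs from 15 to 120 min, and no member rose past the threshold at any time. In all, 3 of the 37 (8.11%) were called at 1 or more times, against 60.8% of all ORFs.

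The distance between the lowest and the highest log2 level over the 6 time points had a median of 0.57 for the 37 genes and 1.37 for all ORFs. It reached 1 in 6 of the 37 (16.2%) and in 65.6% of all ORFs. As deposited, SNF2, the ATPase of SWI/SNF, had the smallest, at 0.19, and FUN30 the largest, at 1.87. The median change of the 37 genes was -0.24, -0.16, -0.05, -0.11 and -0.21 in order of time. Set against the same median over all ORFs, the members stood at -0.14, -0.27, -0.41, -0.55 and -0.55. No member was above the 75th percentile of all ORFs at any time, and between 26 and 32 of the 37 lay between the 25th and the 75th percentile.

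**Figure D1:**
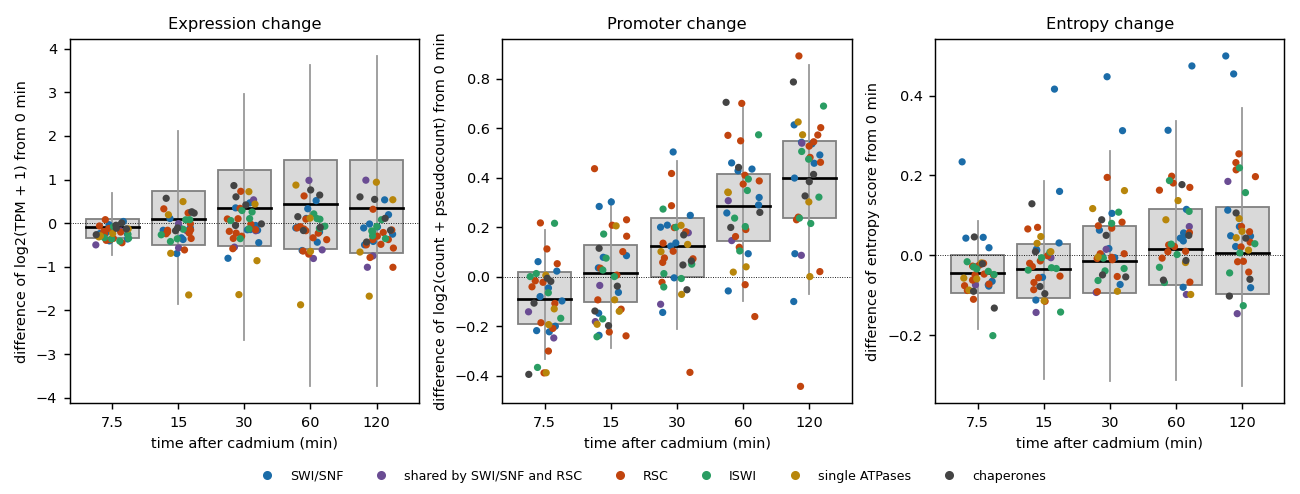
Change from 0 min of each gene (coloured points, by role group) at 7.5 to 120 min in expression (difference of log2(TPM + 1)), promoter small fragments (difference of log2(count + 63)) and gene body entropy (difference of the score), as deposited. Grey boxes span the 25th to 75th percentile of all ORFs, black lines are their medians and thin lines reach from the 5th to the 95th percentile. In expression, FUN30 is the lowest point from 15 min on, at -1.87 at 60 min, and no point lies above a box. In entropy, SWI1 is the highest point at every time, at 0.50 at 120 min.

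At 7.5 min, 34 of the 37 transcripts had a lower TPM than at 0 min, as did 63.7% of all ORFs. After rescaling of the columns by their median ratio, 25 of the 37 and 44.9% of all ORFs were lower. The 3 that were not lower as deposited were SNF11, RSC3 and POB3, with log2 differences of 0.04, 0.08 and 0.00. By more than 2 counting errors, 31, 24, 17, 23 and 24 members were lower than before cadmium in order of time, against 49.3%, 40.2%, 35.6%, 36.1% and 38.9% of the 5631 ORFs with implied reads. Higher by the same margin were 1, 9, 16, 14 and 10 members, against 23.7%, 48.8%, 57.1%, 58.1% and 55.2% of these ORFs. At all 5 treated times, 18 members were below their 0 min value, against 31.1% of all ORFs, and POB3 alone was above it, against 30.9% of all ORFs.

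**Figure D2:**
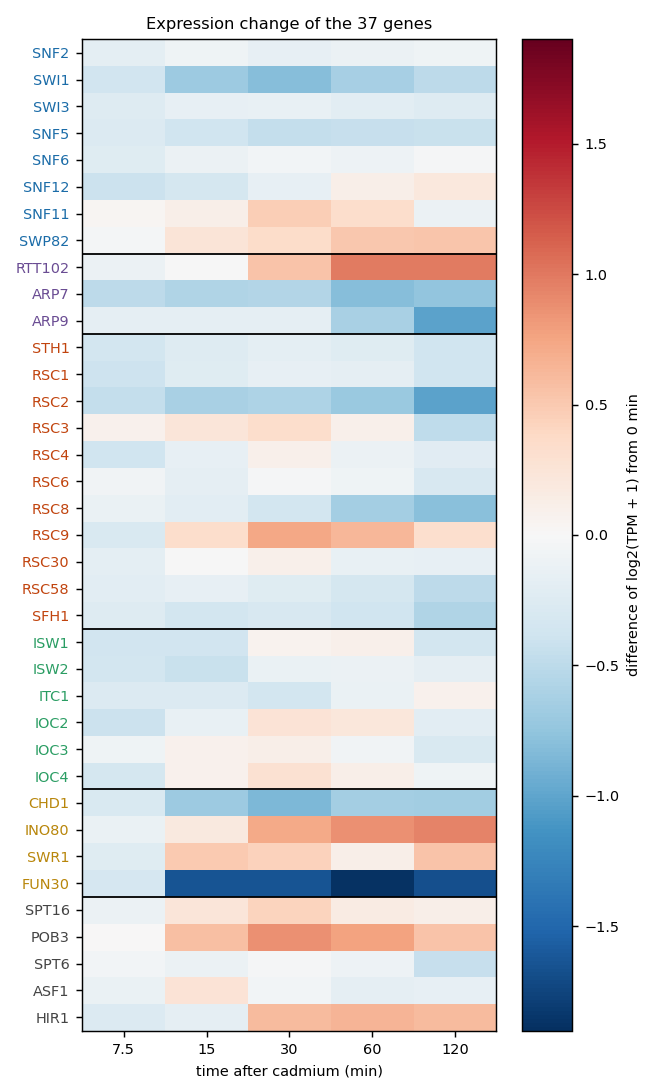
Difference of log2(TPM + 1) from 0 min for each of the 37 genes (rows, names coloured by role group) at each treated time (columns), red for higher and blue for lower. FUN30 is dark blue from 15 min on, and the reddest cells are RTT102 at 60 and 120 min, at 0.98 and 0.99. With the columns rescaled by their median ratio, 9, 2, 7, 8 and 4 genes change sign in order of time, none of them beyond 0.34 as deposited.

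Among the 8 SWI/SNF genes, which as a complex evict and slide nucleosomes at regulated promoters, no transcript was called at any time. Coordinates here and below are those of the RefSeq assembly R64. The catalytic subunit gene SNF2 (YOR290C, chrXV:855147-860258, minus strand) was at 78.6 TPM before cadmium and then 68.9, 74.0, 70.7, 72.8 and 74.1 TPM after it. As deposited, all of its treated values lie below the first, and they span a narrow band. After rescaling, its log2 differences were -0.05, -0.19, -0.49, -0.53 and -0.43 in order of time. SWI1 (YPL016W, chrXVI:521014-524958, plus strand), whose product binds DNA and transcriptional activators, was at 43.9 TPM before cadmium and then 33.9, 26.7, 24.7, 28.1 and 30.8 TPM after it. Its lowest level came at 30 min, with a log2 difference of -0.80 ± 0.03 (counting error), or -1.14 after rescaling, which is past the threshold. SNF5 (YBR289W, chrII:779667-782384, plus strand), another activator-contacting subunit gene, was the least abundant of the 37 transcripts at every time, at 31.3 TPM before cadmium and then 26.1, 23.9, 22.7, 22.9 and 23.2 TPM after it.

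The other SWI/SNF subunits went different ways. SWI3 and SNF6 stayed between -0.25 and -0.02 on the log2 scale at 120 min. SNF12 had 39.6 TPM before cadmium, a low of 29.6 TPM in the first treated sample and 45.4 TPM in the last. Its late positive differences turned negative after rescaling, and its lowest rescaled difference was -0.50, at 30 min. SWP82 had 42.7 TPM in the first and 62.3 TPM in the last sample, a log2 difference of 0.53 ± 0.04, or 0.20 rescaled. SNF11 was highest at 30 min, at 103 TPM against 74.0 TPM at 0 min, and lowest at 120 min, at 68.5 TPM. Its difference at 60 min also changed sign with rescaling, and its highest rescaled difference was 0.18, at 7.5 min. The group's median difference ran from -0.23 at 7.5 min to -0.10 at 120 min.

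The 3 subunits that SWI/SNF and RSC share followed different courses. ARP7 (YPR034W, chrXVI:639525-640958, plus strand) and ARP9 (YMR033W, chrXIII:337788-339277, plus strand) encode a pair of actin-related proteins that sit on the ATPase, and RTT102 (YGR275W, chrVII:1043276-1043749, plus strand) encodes a small protein that binds the pair. ARP7 was at 102 TPM before cadmium and then 71.9, 68.5, 69.3, 57.7 and 60.1 TPM after it. ARP9 was at 87.6 TPM before cadmium and then 77.4, 77.4, 77.5, 57.0 and 43.0 TPM after it. Every treated value of both was below the first, and ARP9 as deposited kept nearly 1 level from 7.5 to 30 min before it went lower. The log2 differences at 120 min were -0.75 ± 0.04 for ARP7, which rescaling took past the threshold to -1.09, and -1.01 ± 0.04 for ARP9. The fall of ARP9 as deposited passed the threshold by little and did not pass with a pseudocount of 5 TPM, where it was -0.95. After rescaling, the log2 differences of ARP9 were -0.04, -0.28, -0.51, -1.04 and -1.35 in order of time, each lower than the one before.

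RTT102 went the other way, at 70.9 TPM before cadmium and then 65.5, 70.4, 103, 141 and 141 TPM after it. Its 3 late values exceed all 3 early ones, a split made after the values were seen. The log2 difference of 0.99 ± 0.06 at 120 min was just under the threshold and was the highest of the 37 at that time, and it was 0.64 after rescaling. RTT102 had the lower TPM of itself and ARP9 up to 15 min and the higher from 30 min on.

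RSC is the abundant, essential remodeler that keeps nucleosome-free regions open. Of its 11 genes in the list, 1, RSC2, was called, at 120 min only. The ATPase gene STH1 (YIL126W, chrIX:117992-122071, plus strand) was at 119 TPM before cadmium and then 92.9, 100.0, 104, 101 and 91.1 TPM after it. Every treated value was lower than the 0 min value, within a log2 difference of -0.38, or -0.72 rescaled. RSC2 (YLR357W, chrXII:841331-844000, plus strand), which encodes a bromodomain subunit, was at 79.0 TPM before cadmium and then 57.6, 51.3, 52.3, 48.0 and 38.7 TPM after it. RSC8 (YFR037C, chrVI:227513-229186, minus strand), the gene of the paralog of the SWI3 scaffold protein, was at 128 TPM before cadmium and then 117, 111, 100.0, 81.7 and 73.6 TPM after it. RSC2 and RSC8 thus reached their lowest level in the last sample, at log2 differences of -1.01 ± 0.03 and -0.79 ± 0.03. Like that of ARP9, the RSC2 fall missed the threshold with a pseudocount of 5 TPM, at -0.94, and RSC8 passed it after rescaling, at -1.13. RSC2 overlaps the ORF YLR358C on the other strand by 514 bp, and that ORF was at 0.12 TPM at 0 min. The strand used for counting is not given in the sources used here.

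RSC9 was the one RSC gene above its starting level from 15 to 120 min, at 61.7 TPM before cadmium and then 50.5, 77.8, 103, 95.7 and 77.2 TPM after it. Its log2 difference peaked at 0.73 ± 0.03 at 30 min (0.39 rescaled), and the one at 120 min, 0.32, was -0.02 after rescaling. RSC3 and RSC30 encode a pair of zinc cluster proteins that direct RSC to a CG-rich DNA element. RSC3 had 73.7 TPM before cadmium, a high of 93.5 TPM at 30 min and a low of 52.4 TPM at 120 min, and its positive differences at 30 and 60 min were negative after rescaling. RSC30 stayed between 41.9 and 51.3 TPM. At 120 min, RSC1, RSC4, RSC6, RSC58 and SFH1 were all below 0 min, with log2 differences between -0.57 for SFH1, the gene of the SNF5 paralog, and -0.21 for RSC4, a bromodomain subunit gene.

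Pairs of paralogs and partners were set side by side through the ratio of their TPM values, which no scaling of a whole column can move. Among 10 such pairs, RSC1 and RSC2, which encode bromodomain proteins found in alternative forms of RSC, shifted most steadily: the ratio of RSC1 to RSC2 was 0.650 before cadmium and then 0.674, 0.852, 0.883, 0.947 and 1.02. At 120 min their log2 changes differed by 0.64 ± 0.05 (counting error). The ratio of SWI3 to its RSC paralog RSC8 was 0.560 before cadmium, 0.516 at 7.5 min and 0.813 at 120 min. That of SNF12 to its paralog RSC6 first fell, from 0.379 before cadmium to 0.297 at 7.5 min. It was still below its start at 15 and 30 min and reached 0.536 at 120 min. In these 2 pairs and in SNF2 and STH1 (0.663 to 0.812) the SWI/SNF member made up more of the pair at 120 min than at 0 min. SNF5 and SFH1 stood at ratios of 0.568 and 0.630, where the log2 changes differed by 0.15 ± 0.07 at 120 min.

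**Figure D3:**
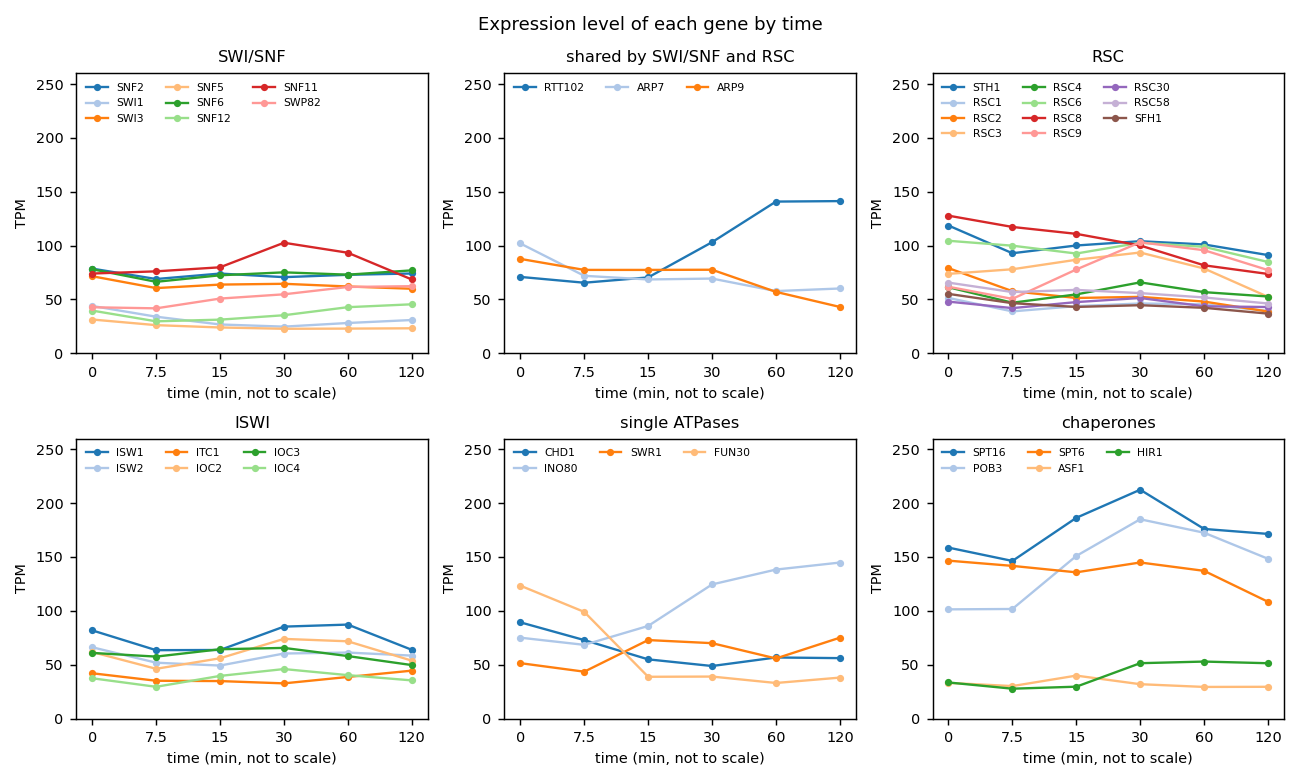
Expression in TPM (vertical axis, linear from 0) of each gene at the 6 time points (horizontal axis, not to scale), in 1 panel per role group, with 1 deposited value per point. RTT102 and INO80 end at 141 and 145 TPM, FUN30 drops from 99.0 to 38.8 TPM between 7.5 and 15 min, and SPT16 and POB3 peak at 30 min.

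The ISWI enzymes, which slide nucleosomes into regular arrays, had no called member. ISW1 (YBR245C, chrII:708150-711539, minus strand) was at 81.9 TPM before cadmium and then 63.5, 63.7, 85.3, 87.2 and 63.8 TPM after it. ISW2 (YOR304W, chrXV:884514-887876, plus strand) was at 66.2 TPM before cadmium and then 51.9, 49.2, 60.4, 61.3 and 58.4 TPM after it. As deposited, both dipped in value at 7.5 and 15 min and were near their starting level at 30 and 60 min. After rescaling, the log2 differences of ISW2 were -0.21, -0.53, -0.47, -0.53 and -0.52 in order of time, with no return at 30 and 60 min. The differences of ISW1 at 30 and 60 min, 0.06 and 0.09, were positive as deposited and negative after rescaling, at -0.28 and -0.34. IOC2, IOC3 and IOC4, the genes of the partner proteins that make up the different forms of the ISW1 complex, had log2 differences between -0.07 and 0.29 at 30 and 60 min, and all the positive ones turned negative after rescaling. ITC1, whose product pairs with ISW2, had 42.0 TPM before cadmium, a low of 32.7 TPM at 30 min and 44.5 TPM in the last sample, where the sign of its small difference depended on the scaling in the same way.

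The widest contrast among the 37 genes was between the 4 ATPases that have no other complex subunit in the list. FUN30 (YAL019W, chrI:114919-118314, plus strand), whose product acts without stable partners in silent chromatin and in resection of broken DNA ends, was at 123 TPM before cadmium and then 99.0, 38.8, 39.0, 33.0 and 38.0 TPM after it. The largest step between successive time points fell between 7.5 and 15 min. The log2 changes were -0.31, -1.65, -1.64, -1.87 and -1.67 in order of time, each with a counting error of 0.02 or 0.03. At 120 min FUN30 stood at 0.308 times its 0 min TPM, and it was called lower from 15 min on with either alternative pseudocount and after rescaling. Its divergent neighbour ATS1, 303 bp upstream on the other strand, was at 33.1 TPM before cadmium and then 29.4, 33.8, 33.8, 30.0 and 39.6 TPM after it. YAL019W-A, which shares the number of FUN30 in its systematic name, was at 1.07 TPM at 0 min and 6.20 TPM at 120 min. How reads were divided between such ORFs is not given in the sources used here.

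CHD1 (YER164W, chrV:505392-509798, plus strand), the gene of a remodeler that spaces nucleosomes behind RNA polymerase, was at 89.3 TPM before cadmium and then 72.9, 55.0, 48.8, 56.7 and 56.1 TPM after it. Its lowest value, at 30 min, had a log2 difference of -0.86 ± 0.02, which was -1.20 after rescaling and then past the threshold. INO80 (YGL150C, chrVII:221104-225573, minus strand), the gene of the ATPase of the complex of that name, was at 75.1 TPM before cadmium and then 68.4, 86.0, 125, 138 and 145 TPM after it. From 15 min on, each INO80 value exceeds the one before. The log2 difference was 0.94 ± 0.02 at 120 min, under the threshold, and stayed positive from 15 to 120 min after rescaling, which gave 0.60 at 120 min. SWR1 (YDR334W, chrIV:1135932-1140476, plus strand) was at 51.4 TPM before cadmium and then 43.5, 72.9, 70.0, 55.8 and 75.1 TPM after it. It showed no steady course: the values at 15, 30 and 120 min are the high ones, and the small positive difference at 60 min turned negative after rescaling.

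The subunits of FACT, the chaperone that travels with RNA polymerase and holds histones during transcription, were highest at 30 min as deposited. SPT16 (YGL207W, chrVII:98969-102076, plus strand) was at 159 TPM before cadmium and then 146, 186, 212, 176 and 171 TPM after it, the highest level among the 37 genes at every time. POB3 (YML069W, chrXIII:135500-137158, plus strand) was at 101 TPM before cadmium and then 102, 151, 185, 173 and 148 TPM after it. Neither was called, with log2 differences at 30 min of 0.42 ± 0.02 and 0.86 ± 0.03, or 0.08 and 0.52 rescaled. The highest rescaled difference of SPT16 was 0.12, at 15 min. After rescaling, POB3 remained above 0 min at all 5 times, and SPT16 was above it at 7.5, 15 and 30 min and below it at 60 and 120 min. The ratio of SPT16 to POB3 was 1.57 before cadmium and then 1.44, 1.23, 1.15, 1.02 and 1.16. The 2 transcripts of this complex of equal parts were thus closest in level at 60 min, where their log2 changes differed by 0.61 ± 0.03 (counting error).

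SPT6 (YGR116W, chrVII:720409-724764, plus strand), the gene of an elongation factor that binds histones and RNA polymerase, was at 147 TPM before cadmium and then 142, 136, 145, 137 and 108 TPM after it. As deposited, only its last value stands apart from the first 5. After rescaling, its log2 differences were 0.09, -0.22, -0.36, -0.52 and -0.77 in order of time, each lower than the one before. ASF1 (YJL115W, chrX:196287-197126, plus strand) was at 33.1 TPM before cadmium and then 30.1, 39.9, 31.9, 29.3 and 29.5 TPM after it. As deposited, the 15 min value is the single high one. After rescaling, the log2 differences of ASF1 were 0.16 at 15 min and -0.39, -0.59 and -0.50 at 30, 60 and 120 min. HIR1 (YBL008W, chrII:209653-212175, plus strand) was at 33.5 TPM before cadmium and then 27.7, 29.6, 51.4, 52.9 and 51.4 TPM after it. The first 3 values of HIR1 and the last 3 do not overlap, which is again a split made after the values were seen. Its log2 differences at 30, 60 and 120 min lay between 0.60 and 0.64, under the threshold. After rescaling they were 0.27, 0.22 and 0.27.

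Other subunits and chaperones outside the 37 genes give the setting. Their counts are read against the 60.8% of all ORFs called at 1 or more times. Of the 5 other RSC and ISW2 subunit genes, none was called at any time. HTL1 and DPB4 had the largest mean differences, with 61.6 and 32.5 TPM for HTL1 and 60.4 and 33.2 TPM for DPB4 at 0 min and at their lowest. Of 22 other INO80 and SWR1 subunit genes, 8 (36.4%) were called at 1 or more times, a smaller share than that of all ORFs. IES5, a small subunit gene of INO80, was past the threshold at all 5 times, as were 2.82% of all ORFs in this direction, with 37.2 TPM before cadmium, 139.6 TPM in the first and 269 TPM in the last treated sample. IES4 went from 45.4 to 163 TPM at 60 min. RVB1, named after its values were seen and encoding an ATPase present in both complexes, went the other way, from 204 to 64.6 TPM at 120 min.

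Of 16 other histone chaperone and elongation genes, 5 (31.2%) were called at 1 or more times, also a smaller share than that of all ORFs. HIR2, a partner of HIR1 in the HIR complex, was at 48.4 TPM before cadmium and then 28.8, 23.8, 20.3, 18.9 and 18.4 TPM after it, so HIR1 and HIR2 ended on opposite sides of their starting levels. NHP6B, one of a pair of genes for a DNA-bending protein that works with FACT, went from 95.5 to 266 TPM at 60 min, while its paralog NHP6A, added for comparison once its values were known, had 437 and 317 TPM. Of 10 histone genes, 8 (80.0%) were called at 1 or more times, all lower, against the 60.8% of all ORFs in either direction, and HTA2 and HTB2 fell most, from 739 to 44.8 TPM and from 794 to 64.2 TPM at 120 min. Core histone genes and the NHP6 pair exist in near-identical copies whose reads may have been split between them in counting, so the values of single copies are uncertain.

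Promoter occupancy was measured as the number of small MNase fragments at each promoter, a footprint of factors smaller than a nucleosome. The counts summed to between 653634 and 1050068 per column, and the total at 120 min was 1.47 times that at 0 min. A promoter change is the difference of log2(count + 63), with the 10th percentile of the table as pseudocount, and the call again needs a difference of 1. The counting error for these genes was 0.09 to 0.13. None of the 35 promoters passed the threshold at any time, against 0.0226%, 0.361%, 0.587%, 1.81% and 3.14% of all promoters in order of time. Their median change followed that of the whole table, at -0.10, 0.00, 0.10, 0.31 and 0.46 in order of time, against -0.09, 0.01, 0.12, 0.28 and 0.40. With every column divided by its median, the members' median was 0.02 at 60 min and 0.03 at 120 min.

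The most positive mean differences in promoter count were at RSC9, SNF2 and RSC58. RSC9 had 158 fragments before cadmium and then 142, 174, 232, 296 and 347 fragments after it, with a log2 difference of 0.89 ± 0.11 (counting error) at 120 min. SNF2 had 241 fragments before cadmium and then 254, 307, 368, 355 and 402 fragments after it. RSC58, the gene of an essential RSC subunit, had 73 fragments before cadmium and then 78, 121, 93, 139 and 133 fragments after it. All 3 were higher at 120 than at 0 min by more than 2 counting errors, and so were 76.2% of all promoters.

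The most negative mean differences were at RSC30, SWI3 and CHD1. RSC30 had 107 fragments before cadmium and then 75, 81, 67, 89 and 62 fragments after it, with every treated count below the first, and a log2 difference of -0.44 ± 0.13 at 120 min. It was the one member lower than at 0 min by more than 2 counting errors at 120 min, as were 2.35% of all promoters. SWI3 had 115 fragments before cadmium and then 90, 88, 98, 108 and 103 fragments after it. CHD1 had 81 fragments before cadmium and then 47, 63, 74, 85 and 81 fragments after it, so that only the 7.5 min count stands well below the rest. SPT6 had a single high count of 183 fragments at 60 min, against 88 at 0 min and 134 at 120 min.

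Some promoter counts were nearly the same as those of the neighbouring gene that points the other way. Among the 37 genes, 20 had such a divergent upstream neighbour, and for 17 of them both genes were in the promoter table. For 5 of the 17, RSC8, FUN30, STH1, RSC9 and IOC2, with 193 to 474 bp between the genes, the counts of the member and its neighbour lay within 10% of each other at all 6 times. In the other 12 pairs the largest difference was between 11.7% and 428%, and among these were the closest pair, ISW1 and RRT2 at 51 bp, with 24.1%, and SNF5 and APM3 at 203 bp, with 16.7%. RSC9 and MSC1, 387 bp apart, differed by at most 4 fragments, as MSC1 had 157 fragments before cadmium and then 138, 175, 228, 295 and 350 fragments after it. Over the same times MSC1 expression went from 8.0 to 599 TPM and RSC9 expression from 61.7 to 77.2 TPM. FUN30 and ATS1 also differed by at most 4 fragments. STH1 and RRT14, 347 bp apart, differed by at most 17, while RRT14 expression went from 179 to 15.8 TPM and that of STH1 from 119 to 91.1 TPM. The promoter window is not given in the sources used here, and to which gene of such a pair the fragments belong was not tested.

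**Figure D4:**
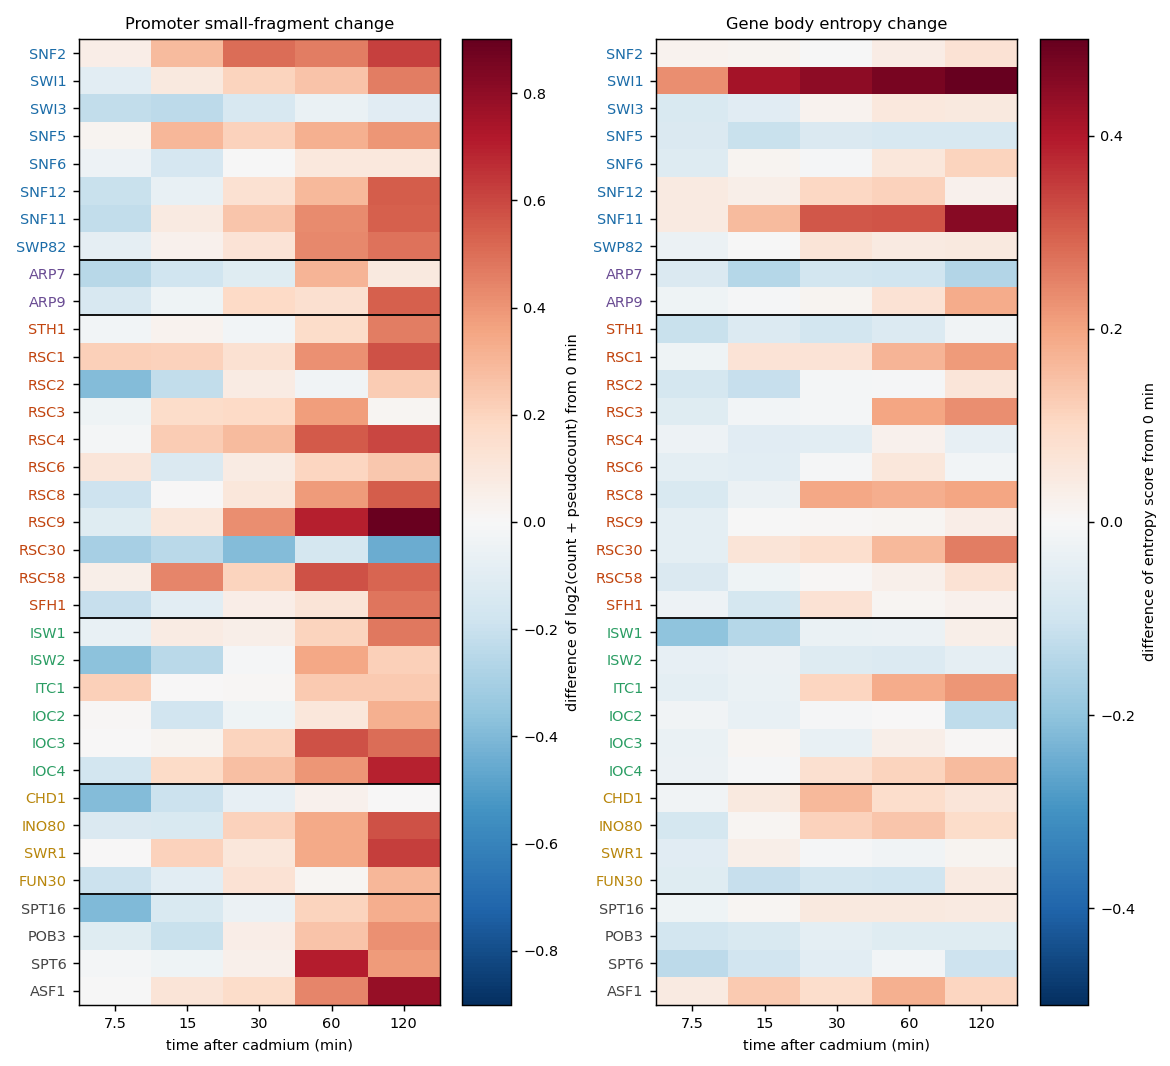
Difference from 0 min in promoter small fragments (left, difference of log2(count + 63)) and in gene body entropy (right, difference of the score) for the 35 genes in the chromatin tables (rows, names coloured by role group) at each treated time (columns), as deposited. Most promoters redden by 120 min, as the whole table does, while RSC30 stays blue. On the right SWI1 and SNF11 stand out, at 0.50 and 0.45 at 120 min.

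Gene body entropy is the authors' score of how disorganised the nucleosomes over a gene are, and it ran from 5.81 to 7.24 in the whole table. The depth behind it is unknown, and a difference of 0.2 was counted as a change. Of the 35 genes, 2 were called in the first treated column, then 1, 2, 2 and 6, against 5.85%, 15.4%, 18.4%, 23.2% and 26.8% of all ORFs. The 6 at 120 min (17.1%) were all rises, at SWI1, SNF11, RSC1, RSC3, RSC30 and ITC1. From 15 min on every call was a rise, and rises made up 4.56%, 7.95%, 12.8% and 14.9% of all ORFs at these times. The one fall was that of ISW1 at 7.5 min, with a difference of -0.20, which was -0.15 after the column medians were subtracted. In all, 7 of the 35 were called at 1 or more times, against 34.7% of all ORFs. The members' median difference was -0.05, -0.01, 0.00, 0.04 and 0.05.

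SWI1 had the largest entropy rise of the 35, with scores of 6.69 before cadmium and then 6.92, 7.10, 7.13, 7.16 and 7.19 after it. It was called at all 5 times, as 0.971% of all ORFs were in this direction, and its mean difference of 0.41 lay at the 99.2nd percentile of all ORFs. Each treated score was higher than the one before it, and the transcript meanwhile had 0.563 to 0.773 times its 0 min TPM. The genes on both sides of SWI1 changed in expression. HST2, which converges on it with 851 bp between them, had entropy scores of 6.55 before cadmium and then 6.59, 6.92, 7.11, 7.07 and 7.12 after it and went from 61.8 to 172 TPM at 120 min. IRC15, which diverges from it at 780 bp, had scores of 6.95 before cadmium and then 6.90, 6.99, 7.09, 7.09 and 6.95 after it and went from 3.11 to 110.0 TPM. Their part in the SWI1 scores was not tested.

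SNF11, which encodes a small SWI/SNF subunit, had scores of 6.43 before cadmium and then 6.47, 6.59, 6.74, 6.74 and 6.88 after it. It was called from 30 min on. The gene downstream on the same strand, 944 bp away, is TPS2, which encodes an enzyme of trehalose synthesis. TPS2 had scores of 6.32 before cadmium and then 6.19, 6.79, 6.96, 6.86 and 6.79 after it and went from 31.9 to 361 TPM at 120 min. SNF11 expression was 74.0 TPM before cadmium and then 76.0, 79.8, 103, 93.3 and 68.5 TPM after it, and the part of TPS2 in its scores was not tested.

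**Figure D5:**
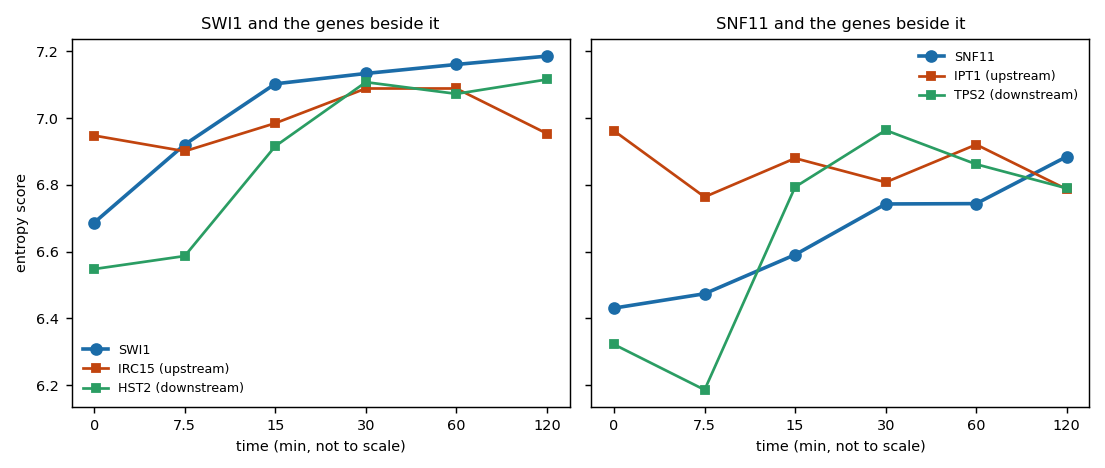
Gene body entropy score (vertical axis, no true zero) at the 6 time points (horizontal axis, not to scale) of SWI1 and SNF11 (circles) and of the genes on either side of each (squares), with 1 deposited value per point. SWI1 and its downstream neighbour HST2 both climb, to 7.19 and 7.12 at 120 min, and SNF11 climbs to 6.88 while its downstream neighbour TPS2 peaks at 6.96 at 30 min.

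ASF1 had the next largest mean entropy difference, 0.11, with scores of 6.62 before cadmium and then 6.67, 6.75, 6.71, 6.80 and 6.73 after it, none of them called. The most negative mean differences were at ARP7, SNF5 and SPT6, also without a call. ARP7 had scores of 6.62 before cadmium and then 6.55, 6.48, 6.53, 6.53 and 6.48 after it. SNF5 had 6.51 before cadmium and then 6.44, 6.40, 6.44, 6.43 and 6.43 after it. SPT6 had 6.25 before cadmium and then 6.12, 6.15, 6.20, 6.24 and 6.15 after it. In these 3 genes every treated score was below the first, as in 6 of the 35 genes and 32.4% of all ORFs.

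The late rises at RSC1, RSC3, RSC30 and ITC1 were close to the threshold. At 120 min the entropy differences were 0.21, 0.23, 0.25 and 0.22. After subtraction of the column medians RSC1 and ITC1 were under the threshold, at 0.19 each, which left 4 called members, against 27.2% of all ORFs. After quantile normalization of the columns RSC1, RSC3 and ITC1 were under the threshold, at 0.19 each, and ARP9 and RSC8, at 0.18 and 0.20 as deposited, were past it. RSC30 thus combined the lower promoter count described above with a called rise in entropy at 120 min, and its expression was 47.9 and 42.9 TPM at 0 and 120 min.

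Across the 35 genes, expression and entropy changes ran together little. Their Spearman correlation was -0.08, 0.38, 0.03, 0.10 and -0.02 in order of time, whereas across 4423 ORFs it was 0.32, 0.57, 0.55, 0.52 and 0.48. For expression and promoter changes it was between 0.10 and 0.35 in the 35 genes and between 0.09 and 0.43 in all ORFs. Genes are not replicates, the points share their libraries and the 0 min column, and the expression changes of the 35 span a narrower range than those of all ORFs, so these values are descriptions.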

How the data were processed

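Gene expression and chromatin were measured in the same cadmium time course, and titles placed each of the 24 labelled samples in a group of 1 assay at 1 time. The submitters' processing notes name Bowtie 0.12.7 and the builds sacCer3 and R64, without saying which step or data type used them. The authors deposited TPM values per ORF, whole-number counts of small MNase fragments per promoter, and an entropy score per gene body, with a time point named for each column and no replicate, per the file headers. The counting program, annotation, strand, windows and entropy formula are not given in the sources used here.

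Names and coordinates came from a RefSeq table of assembly R64, which matched 5900 of the 6575 ORFs and all members, and strands came from the systematic names. Implied reads are TPM times gene length in steps of 1 read. They were whole within a tolerance of 0.02 for 99.3% to 99.5% of matched ORFs above 0, and were used for counting errors only, which the delta method gave from Poisson counts. Changes were differences from 0 min over all ORFs (pandas 2.3.3, numpy 2.4.6, scipy 1.17.1, Python 3.11.15). The reading of reads and the calls were tested on simulated data.

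With 1 column per time point no test was possible, and the models planned for replicate columns were not run. The member genes, the related gene lists and the thresholds were chosen with earlier results of these data known. Full values are given for every ATPase and chaperone gene, for the 2 genes of each role group and related list with the largest absolute mean expression change, and for the 3 largest mean rises and falls in each chromatin measure. Other genes were named after their values were seen. Promoter sequences were not used here. Alternatives were pseudocounts of 0.1 or 5 TPM, a minimum of 10 TPM or none, TPM columns rescaled by their median ratio, promoter pseudocounts 10 times smaller and larger, promoter columns divided by their median, and entropy columns minus their median or quantile normalized.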

Additional observations from a re-analysis of the deposited data

How the results depend on the processing

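No paired analysis was possible because the columns carry no replicate numbers, and for the same reason no replicate was left out. The expression filters could not change any member value, because the lowest member level was 22.7 TPM. They only set which ORFs entered the background. With a pseudocount of 0.1 TPM, every count and median expression change of the members kept its direction and side of the threshold. At member levels this far above 1 TPM, that pseudocount could move the changes only little. Rescaling the TPM columns by their median ratio called 3 members at 30 min (SWI1, CHD1 and FUN30), 7 at 60 min (those and ARP7, ARP9, RSC2 and RSC8) and 6 at 120 min (the 7 without SWI1), all lower, where the same rescaling called 44.7%, 50.8% and 52.9% of all ORFs. It moved the members' median expression change to -0.10, -0.27, -0.39, -0.53 and -0.55 in order of time. The same rescaling moved the share of rises among all called ORFs from 65.4% to 74.3% at 7.5 min, from 64.1% to 51.1% at 30 min, from 65.3% to 51.1% at 60 min and from 62.6% to 51.6% at 120 min. With a pseudocount of 5 TPM, 1 member was called at 120 min.

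For promoters, a pseudocount 10 times smaller called 1 member at 60 min (SPT6, 1.01) and 1 at 120 min (RSC9, 1.10), against 5.01% and 9.10% of all promoters. A pseudocount 10 times larger gave median changes of 0.083 at 60 min and 0.135 at 120 min, and division by the column medians gave 0.017 and 0.029. For entropy, subtraction of the column medians gave 1 call at 7.5 min, 2 at 15 min and 4 at 120 min, where the deposited scores gave 2, 1 and 6. Quantile normalization gave 1, 2 and 5 calls at these 3 times. With the medians subtracted, the members' median differences were 0.00, 0.029, 0.01 and 0.021 for 7.5, 15, 60 and 120 min, and after quantile normalization they were 0.0078, 0.019 and 0.054 for 7.5, 15 and 30 min. The cause of these shifts was not tested beyond what each alternative does by its construction. The entropy depth is unknown, and without replicate columns neither library nor biological variation could be estimated.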

Other observations

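At 0 min, before cadmium, several of these genes lay among the lowest entropy scores of all 4427 ORFs. IOC2 had a score of 6.01, at the 0.045th percentile, and SWR1 one of 6.03, at the 0.090th. POB3, at 6.19, lay at the 1.40th percentile, SPT6, at 6.25, at the 2.67th, and SWP82, at 6.26, at the 2.91st. At the other end were SNF6, with 7.07 at the 92.2nd percentile, and INO80, with 7.01 at the 88.8th. The score of IOC2 was 5.89 at 120 min and that of SWR1 6.04, neither of them called as a change. These genes were picked for their scores, so no test is attached to them.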
